A study of Mus musculus and Homo sapiens
Mus musculus with 12 samples.

Results

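The genes described here encode 10 serotonin receptors of the mouse brain: Htr1a, Htr1b, Htr1d, Htr1f, Htr2a, Htr2c, Htr3a, Htr4, Htr5a and Htr7. They were taken by symbol from the count tables of 7 single-nucleus total RNA libraries and are 10 of the 34496 genes listed in any of those tables. All 10 were found in the tables, and together they held 83417 unique fragment identifiers (UFIs, the molecule tags of this method). The study compared, in mouse brain, nuclei from frozen tissue with nuclei from fresh tissue, and a reverse transcription primer with cell barcode 2 (preindex) with a primer without it (no preindex). The groups were frozen without preindex (2 libraries), frozen with preindex (2 libraries), fresh without preindex (2 libraries) and fresh with preindex (1 library), and per the methods all mice were wild-type C57BL/6J males of 6 to 8 weeks. No label says that libraries of one group came from separate animals, so every p-value below measures the spread between these libraries, which may be technical.

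Serotonin is released by a small number of neurons in the raphe nuclei of the brainstem, whose axons reach nearly the whole brain. What a target cell does with it depends on its receptors. The Htr1 and Htr5 receptors couple to inhibitory G proteins that lower cyclic AMP and open potassium channels, the Htr2 receptors couple to Gq and phospholipase C, Htr4, Htr6 and Htr7 couple to Gs and raise cyclic AMP, and Htr3 receptors are ligand-gated cation channels. Because the primers were random, UFIs came from whole transcripts, introns included, and a long gene gathers more of them than a short one at the same number of transcripts.

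The 7 libraries held 11198 nuclei, from 700 to 3100 a library, with 8605214 to 42439731 UFIs a library and a median of 9011.5 to 27543 UFIs a nucleus. The primer named in the treatment field contradicts the title in 4 libraries. Titles were used here, and barcode length goes with them: 40 bases where the title says preindex and 30 elsewhere. Neuron-like nuclei made up 80.3 to 94.6% of a library. Kidney-like nuclei (481) occurred only in the frozen preindexed libraries, at 11.7% and 10.7% of their nuclei. A cluster of 92 nuclei led by the liver genes Cps1, Cyp3a25 and Alb occurred in all 7 libraries. Siglech, a gene of microglia, was also among its 10 leading genes, and no cluster was named from the microglia markers. This cluster is called the liver cluster below, although the liver markers did not suffice to name it. Which cells it holds was not tested. The cerebellar granule-like and Purkinje-like nuclei went from 13.9% of the neuron-like nuclei in a frozen library without preindex to 0 in a frozen preindexed one. The fresh preindexed library stands alone in its group, and leaving it out moved the count of genes called for storage from 40 to 840. Of all barcodes, 32 occurred in more than 1 library, at most 10 in any pair. Receptor genes were kept out of the clustering and out of the marker lists, but genes that vary with them were not.

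The promoters of 8 of the 10 genes were matched in a RefSeq table for GRCm38.p6, which had no entry for Htr3a or Htr4. The windows of Htr1b, Htr1d and Htr2c are shown because these 3 genes, described below, were all far lower in cortical glutamatergic-like than in striatal medium spiny neuron (MSN)-like nuclei. Each window is the 250 bases before a RefSeq start, written 5′ to 3′ on the gene's strand, for Htr1b at chr9:81633833-81634082 (minus strand), for Htr1d at chr4:136423274-136423523 (plus strand) and for Htr2c at chrX:146962263-146962512 (plus strand). Capitals mark the letters CCAAT on either strand, which read ATTGG on the opposite one, and, in Htr1d, the letters GGGCGG (a GC box).
Htr1b: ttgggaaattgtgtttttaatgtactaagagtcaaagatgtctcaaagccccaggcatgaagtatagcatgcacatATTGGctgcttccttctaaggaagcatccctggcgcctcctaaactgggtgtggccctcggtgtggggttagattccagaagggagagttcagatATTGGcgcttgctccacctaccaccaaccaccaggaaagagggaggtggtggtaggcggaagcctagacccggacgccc
Htr1d: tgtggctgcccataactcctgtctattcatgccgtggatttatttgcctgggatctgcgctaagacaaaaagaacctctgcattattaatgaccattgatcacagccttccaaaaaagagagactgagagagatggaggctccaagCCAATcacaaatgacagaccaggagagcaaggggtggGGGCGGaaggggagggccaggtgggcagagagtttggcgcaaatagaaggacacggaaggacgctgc
Htr2c: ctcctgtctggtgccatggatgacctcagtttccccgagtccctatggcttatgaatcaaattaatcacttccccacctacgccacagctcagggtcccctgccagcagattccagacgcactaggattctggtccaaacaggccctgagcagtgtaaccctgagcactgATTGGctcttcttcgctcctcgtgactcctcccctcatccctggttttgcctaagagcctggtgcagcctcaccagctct
CCAAT occurred on either strand in all 3 windows and in none of the windows of the other 5 matched genes. The 3 genes were chosen by their levels in these same data. Htr4, also far lower in cortical glutamatergic-like nuclei, had no window. A link between CCAAT and these levels was therefore not tested. It occurs in 33.8% of the 32851 RefSeq windows of this length, and GGGCGG in 32.7% of them. A later Htr1d start in the same table has no CCAAT and 3 GC boxes. The letters TATAAA, TGACGTCA and CACGTG, searched on both strands, occurred in none of the windows of the 8 genes, against 12.4%, 1.55% and 6.02% of all windows. These matches describe letters and not binding.

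In the GENCODE M21 annotation of GRCm38, the gene spans ran from 4.484 kb for Htr1a (13:105443639-105448122) to 234.765 kb for Htr2c (X:146962513-147197277). Htr1b (9:81628291-81633828), Htr1a and Htr3a (9:48899213-48911099) are short, whereas Htr1f (16:64924729-65105854), Htr4 (18:62324204-62496577), Htr7 (19:35958734-36057507) and Htr2a (14:74640840-74709494) are long and mostly intron. Htr1d (4:136423524-136444398) and Htr5a (5:27842149-27855088) lie between them. Of the span of Htr1f, 1.42% is exonic, against 85.3% for Htr1b. Htr1b overlaps the antisense gene D430036J16Rik over 2278 bases, and Htr3a overlaps the antisense gene Gm32335 over 6770 bases. The method keeps strand per the study, but the strand setting of the counting is not given in the sources used here, so UFIs in these overlaps are uncertain.

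Each of the 10 genes had its own distribution over the clusters. Levels are given as UFIs of a gene per 1000000 UFIs (CPM) of a cluster's nuclei summed in 1 library, as mean ± SD over the libraries that held at least 10 of its nuclei. Of 25 clusters, 21 reached this in at least 4 libraries. Clusters are called after markers as "X-like", and clusters without enough markers are named by their leading genes. For Htr1d, Htr2a, Htr3a and Htr4 the range over libraries in the leading cluster did not overlap that of the next cluster, and for the other 6 genes it did. The clusters were ordered by these same values and overlap was not counted over all genes, so this describes each gene only. Htr2c and Htr1f took 34.8% and 25.2% of all UFIs of the 10 genes, Htr4 14.3%, Htr2a 11.2% and Htr7 8.83%.

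**Figure D1:**
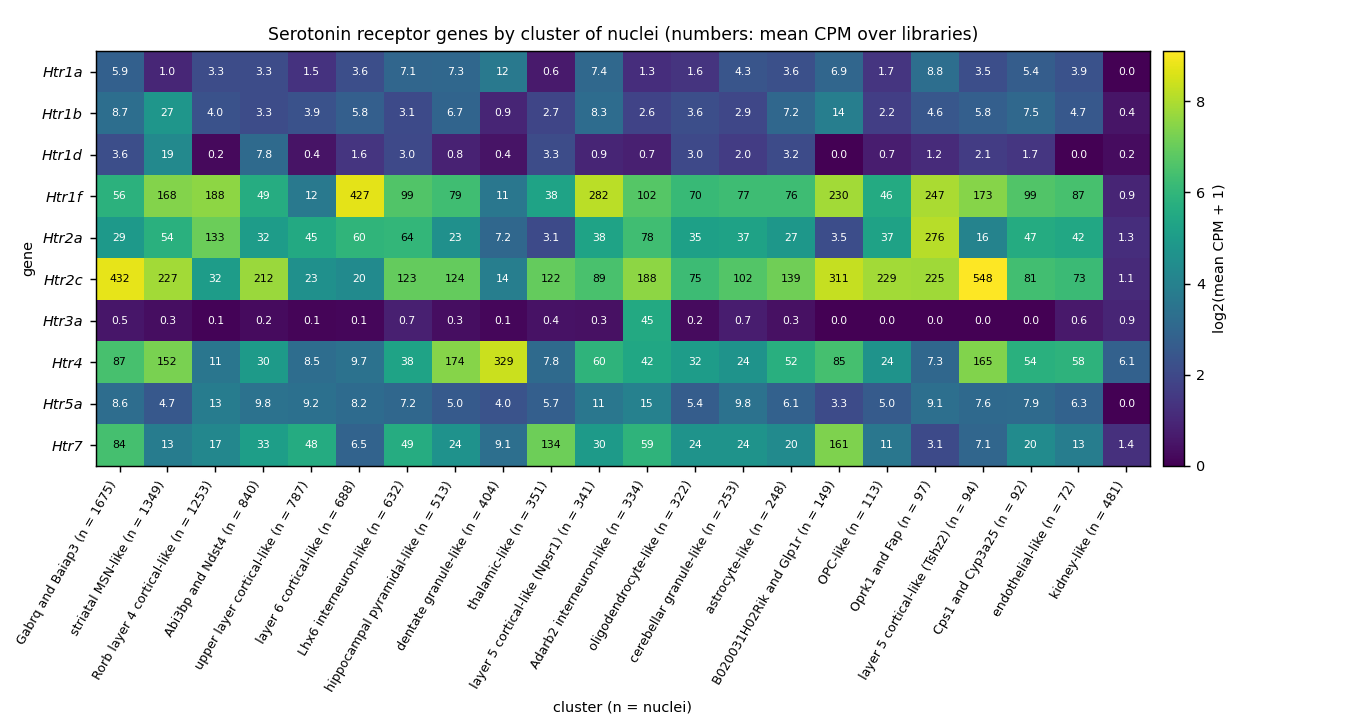
Mean CPM over libraries (printed in each cell, colour on a log2(CPM + 1) scale) of the 10 receptor genes in the 21 clusters present in at least 4 libraries and in kidney-like nuclei. Htr3a is near 0 outside the Adarb2 interneuron-like cluster (45.2 CPM), whereas the lowest of the 21 means is 11.1 CPM for Htr1f and 13.8 CPM for Htr2c, both in dentate granule-like nuclei.

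Among the receptors that couple to inhibitory G proteins, Htr1b and Htr1d led in striatal MSN-like nuclei, Htr1f in layer 6 cortical-like nuclei, Htr1a in dentate granule-like nuclei and Htr5a in Adarb2 interneuron-like nuclei. Htr1b, which sits on axon terminals and limits transmitter release, ranged in MSN-like nuclei from 20.4 to 33.8 CPM over 7 libraries, with a median of 26.3. Htr1d, its close relative, ranged there from 11.3 to 24.9 CPM, with a median of 18.3. All 7 libraries had more Htr1d in MSN-like nuclei than in the next cluster, led by Abi3bp and Ndst4, at 7.85 ± 1.91 CPM (n = 7). Htr1b was higher still in Purkinje-like nuclei, at 104 and 87.2 CPM in the frozen libraries without preindex, the only ones with 10 or more of them.

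Htr1f, the receptor of the lasmiditan class of migraine drugs, ranged in layer 6 cortical-like nuclei from 367 to 489 CPM, with a median of 426. The next cluster, layer 5 cortical-like nuclei with Npsr1 among their leading genes, ranged from 181 to 469 CPM, with a median of 262. Layer 6-like nuclei were the higher in 6 of 7 libraries, and the ranges overlapped. At the low end Htr1f stood at 11.9 CPM in upper layer cortical-like and 11.1 CPM in dentate granule-like nuclei.

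Htr1a, the autoreceptor of raphe neurons and a target of anxiolytic drugs, was scarce. Its level in dentate granule-like nuclei ranged from 4.10 to 17.6 CPM, with a median of 14.4. The mean, 11.7 ± 4.90 CPM (n = 7), overlapped those of the next clusters, which stood at 8.84 (led by Oprk1 and Fap), 7.39 (layer 5-like) and 7.27 CPM (hippocampal pyramidal-like). With finer clusters (Leiden resolution 1.2), Htr1a led, among clusters found in at least 4 libraries, in 304 Lhx6 interneuron-like nuclei, at 14.6 ± 8.68 CPM. With each nucleus thinned to 5000 UFIs, Htr1a led in the Oprk1 and Fap cluster. Its leading cluster thus depended on the clustering and on depth. Htr5a was spread most evenly. It stood at 14.8 ± 4.93 CPM in Adarb2 interneuron-like, 13.2 ± 3.43 in Rorb layer 4 cortical-like and 11.2 ± 3.71 in layer 5-like nuclei with Npsr1. The ranges of these neighbours overlapped, and the lowest Htr5a mean was 3.28 CPM. At 5000 UFIs a nucleus, Htr5a led in Rorb layer 4 cortical-like nuclei instead.

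The Gq-coupled Htr2a and Htr2c had their highest means in different clusters. Htr2a, the main target of psychedelic drugs, was highest in a small unnamed cluster of neuron-like nuclei led by Oprk1, Fap and Nr4a2, at 278 and 264 CPM in the frozen preindexed libraries, 306 CPM in a fresh library without preindex and 255 CPM in the fresh preindexed one. Rorb layer 4 cortical-like nuclei followed, from 98.8 to 164 CPM with a median of 139, and all 4 values of the first cluster lay above that range. Adarb2 interneuron-like nuclei came next at 77.7 ± 13.4 CPM (n = 7). The lowest Htr2a means were in the cluster led by B020031H02Rik and Glp1r (3.47 CPM) and in thalamic-like nuclei (3.11 CPM). With finer clusters (Leiden resolution 1.2) a layer 6 cortical-like cluster of 214 nuclei led by Ctgf had 141 ± 34.5 CPM of Htr2a. These finer clusters were picked after their values were seen.

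Htr2c, the receptor with the most UFIs of all, was highest in layer 5 cortical-like nuclei with Tshz2 among their leading genes, at 305 and 911 CPM in the frozen preindexed libraries, 596 CPM in a fresh library without preindex and 379 CPM in the fresh preindexed one. This cluster held only 94 nuclei, and its 4 values spread widely. Without the library at 911 CPM, frozen preindex replicate 2, the cluster led by Gabrq and Baiap3 had the highest mean, as it also did with 20 principal components. In that cluster, the largest of all (1675 nuclei), Htr2c ranged from 341 to 609 CPM, with a median of 434, and the fresh preindexed library was the highest. The lowest means were 22.8 CPM in upper layer cortical-like, 19.6 in layer 6 cortical-like and 13.8 in dentate granule-like nuclei. Oligodendrocyte precursor (OPC)-like nuclei had 229 ± 359 CPM (n = 4), a mean set by 767 CPM in 1 frozen preindexed library, with 71.9 CPM or less in the other 3.

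The Gs-coupled Htr4 and Htr7 led in different clusters, Htr4 in dentate granule-like nuclei and Htr7 in an unnamed cluster with thalamic-like nuclei next. Htr4 in dentate granule-like nuclei ranged from 282 to 402 CPM, with a median of 296, above every library of the next cluster, hippocampal pyramidal-like nuclei, at 124 to 255 CPM with a median of 159. MSN-like nuclei had 106 to 177 CPM, with a median of 167. The lowest Htr4 means were 7.81 CPM in thalamic-like nuclei and 7.26 CPM in the Oprk1 and Fap cluster. Htr7 was highest in the cluster led by B020031H02Rik and Glp1r, at 210, 168, 144, 185 and 99.3 CPM in the 5 libraries that held enough of it. Thalamic-like nuclei followed at 43.5 to 187 CPM, with a median of 143, and the first cluster was the higher in 3 of the 5 shared libraries.

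Htr3a, the subunit that every Htr3 channel needs, was close to a single-cluster gene. In Adarb2 interneuron-like nuclei, which include the Vip, Ndnf and Lamp5 interneurons, it ranged from 24.3 to 84.6 CPM, with a median of 36.5. The other 20 of the 21 clusters had means of 0.749 CPM or less. Htr3a is among the 10 leading genes of that cluster by fold although it had no part in forming or naming it.

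**Figure D2:**
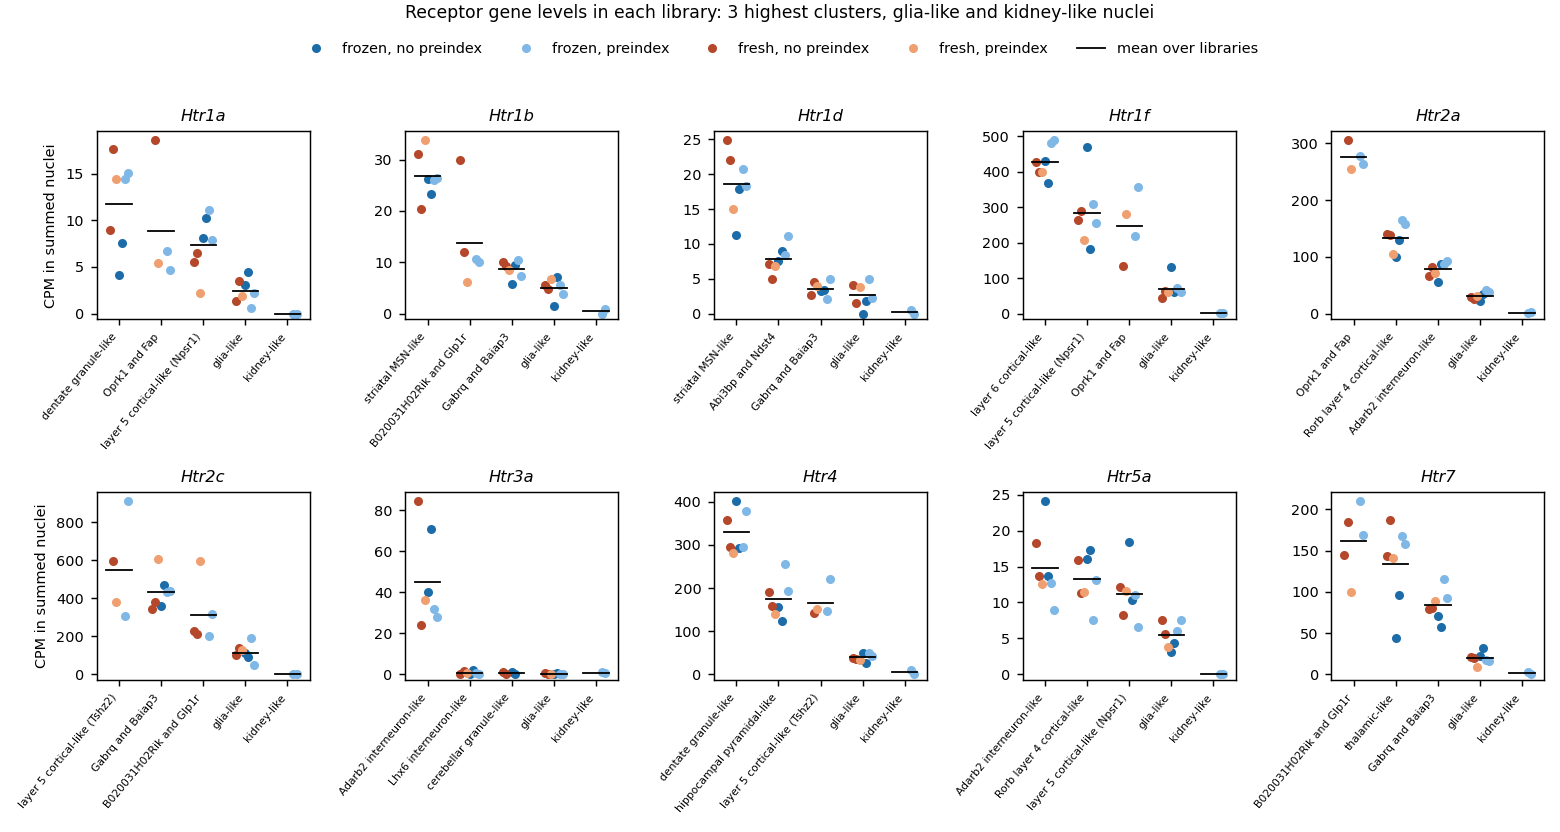
CPM of each gene in each library (points, coloured by storage and primer group; lines, means) in the 3 clusters with the highest means, in glia-like nuclei and in kidney-like nuclei of the 2 frozen preindexed libraries. The leading clusters of Htr1d, Htr2a, Htr3a and Htr4 lie wholly above the next ones, and the kidney-like nuclei lie near 0 in all 10 panels.

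The share of nuclei with at least 1 UFI depends on depth as well as on the level. It was 86.6% for Htr1f in layer 6 cortical-like nuclei (exact 95% interval 83.9 to 89.1), 85.4% for Htr4 in dentate granule-like (81.6 to 88.7) and 20.1% for Htr3a in Adarb2 interneuron-like nuclei (15.9 to 24.8). With each nucleus thinned to 5000 UFIs (172 shallower nuclei left out) these shares were 75.9%, 68.0% and 12.2%. The intervals cover counting error only. In kidney-like nuclei, which should lack these receptors, the shares ran from 0 to 1.25% at a median of 8765 UFIs a nucleus, against 13021 in neuron-like nuclei. For Htr1a and Htr5a no kidney-like nucleus had a UFI, 0 of 481, which allows a share of up to 0.624%.

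Glia-like nuclei (astrocyte-, oligodendrocyte- and OPC-like, 683 in all) were not at that level. Their shares with at least 1 UFI ran from 0.293 to 28.7% over the 10 genes. The 10 genes together made up 290 CPM of glia-like nuclei, 488 CPM of neuron-like nuclei and 12.1 CPM of kidney-like nuclei. Other nuclei that are not neuron-like were near the glial level, with 341 CPM in the liver cluster (92 nuclei, of which, at 5000 UFIs each, 22.2% had UFIs of 2 or more of the genes) and 270 CPM in endothelial-like nuclei (72). In the frozen preindexed libraries, which held all 3 kinds, Htr2c stood at 189 and 48.2 CPM in glia-like, 167 and 166 CPM in neuron-like and 0.952 and 1.27 CPM in kidney-like nuclei. Against glia-like nuclei, 8 of the 9 receptor genes tested were higher in neuron-like nuclei, where 20.4% of all genes tested were called higher and 21.6% lower (41.9% in all), with log2 fold changes from 0.60 (Htr5a) to 1.2 (Htr7). The calls of Htr1a and Htr5a ended when any 1 of 3 libraries was left out (0.81 to 0.97 for Htr1a, adjusted p = 0.051 to 0.059, and 0.52 to 0.55 for Htr5a, adjusted p = 0.054 to 0.092). Htr1d had 0.73 ± 0.31 (adjusted p = 0.077). Only for Htr4 (60.3 to 80.0 against 25.7 to 50.3 CPM) and Htr7 (32.6 to 50.4 against 9.51 to 31.9 CPM) did the 7 libraries of both classes not overlap. Overlap was not counted over all genes, so this describes each gene only. How much of the glial, endothelial and liver cluster levels is RNA of other brain nuclei or doublets was not tested, and levels at or under the glial mean were not read as expression. Some class differences below lie between such levels, as that of Htr4 between thalamic-like and cortical glutamatergic-like nuclei. They describe UFIs only.

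Per length the order of the genes changed. In all neuron-like nuclei Htr2c had the most UFIs, at 169 CPM, followed by Htr1f at 124 and Htr4 at 69.9 CPM. Per kb of gene span the short Htr1b led at 1.47 CPM per kb, then Htr1a at 1.01, Htr2a at 0.798, Htr2c at 0.720 and Htr1f at 0.682 CPM per kb. Htr1d (0.206) and Htr3a (0.130) were the lowest on this scale. Per kb of exon the order was another. Htr1f led at 47.9 CPM per kb, then Htr2c at 18.1 and Htr4 at 14.2. On that scale Htr1b had 1.72 and Htr1a 1.01 CPM per kb, so the lead of these short genes holds for the span only. The span is an upper bound on what was counted, and the usage of each transcript was not measured.

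**Figure D3:**
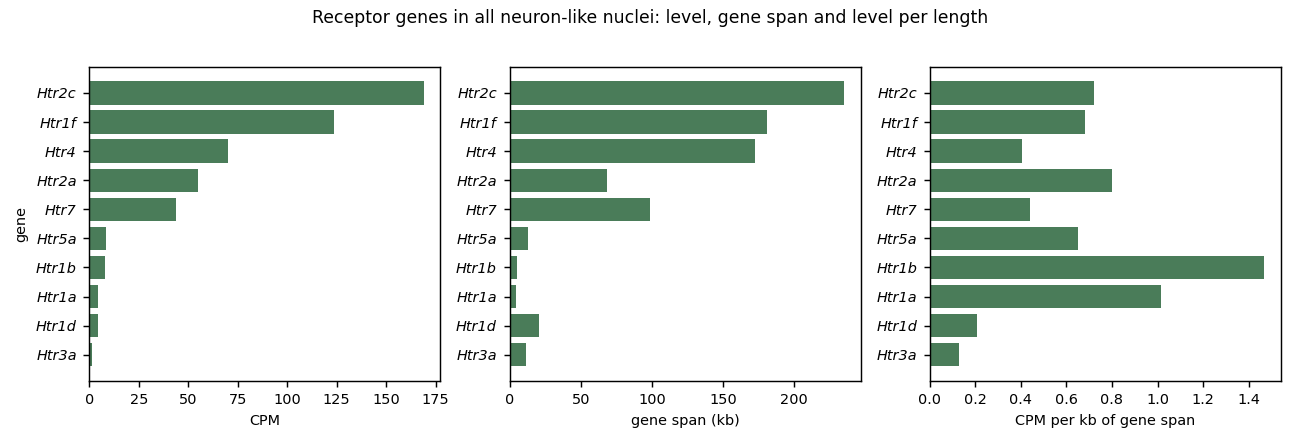
CPM in all neuron-like nuclei, gene span in kb, and CPM per kb of span for the 10 genes, all ordered by CPM. Htr1b and Htr1a, short genes with 8.12 and 4.55 CPM, have the highest levels per kb of span (1.47 and 1.01).

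Nuclei of different clusters differed in how many of the 10 genes they showed. At 5000 UFIs a nucleus, 60.8% of the Oprk1 and Fap cluster, 57.7% of the B020031H02Rik and Glp1r cluster and 52.8% of MSN-like nuclei had UFIs of 2 or more receptor genes. This was so for 8.57% of upper layer cortical-like and 10.4% of dentate granule-like nuclei, and for no kidney-like nucleus. It was also so for 16.7% of glia-like nuclei, and shares at or under that value were not read as expression. Htr4 alone had a UFI in 68.0% of dentate granule-like nuclei at this depth.

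Class comparisons used edgeR's quasi-likelihood test on UFIs summed per class and library, with the library as a block and Benjamini-Hochberg adjustment over all genes tested. The count filter is also passed by a gene that is high in 1 class only. The calls of such genes add little to their levels. This holds for Htr1d here, Htr3a between interneuron classes and Htr2a between thalamic-like and cortical nuclei. Between cortical glutamatergic-like and striatal MSN-like nuclei all 8 receptor genes that passed the count filter were called, 4 in each direction, where 53.4% of all genes were called (26.9% higher and 26.5% lower in cortex). Their median log2 fold change was -1.04, against -0.01 over all genes. Htr1d had 0.716 ± 0.315 CPM in cortical and 18.6 ± 4.53 CPM in MSN-like nuclei (n = 7 each), a log2 fold change of -4.77 ± 0.20 (SE, adjusted p = 2.3e-11). Htr4 had 19.3 ± 5.11 and 152 ± 27.5 CPM (-3.09 ± 0.16, adjusted p = 2.5e-10). Htr1b had 4.84 ± 1.51 and 26.8 ± 4.52 CPM (-2.59 ± 0.16, adjusted p = 1.6e-09), and Htr2c 47.1 ± 12.5 and 227 ± 23.9 CPM (-2.35 ± 0.13, adjusted p = 6.8e-10). These 4 genes were lower in cortical-like nuclei in 7 of 7 libraries, without overlap. Here and in the comparisons below, overlap was not counted over all genes, so it describes each gene only.

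The genes higher in cortical-like nuclei differed by less. On the log2 scale Htr5a differed by 1.43 ± 0.26 (adjusted p = 0.00020), Htr7 by 0.96 ± 0.18 (adjusted p = 0.00037), Htr2a by 0.60 ± 0.11 (adjusted p = 0.00023) and Htr1f by 0.27 ± 0.08 (adjusted p = 0.010). Of these only Htr2a had no overlap between the classes, at 66.6 to 101 against 35.5 to 61.7 CPM. The directions of Htr1f, Htr2a and Htr7 changed with the clustering, and the cause was not tested. With finer clusters the cortical class held 2094 nuclei instead of 3163. It lacked an unnamed cluster of 474 nuclei in which Htr1f ranged from 428 to 609 CPM. With 20 principal components it was a layer 6 cortical-like cluster of 786 nuclei alone. The MSN-like class held 1332 and 1328 nuclei in these cases instead of 1349. Htr1f was -0.05 (adjusted p = 0.57) in the first case, and Htr2a -0.06 (adjusted p = 0.79) and Htr7 -0.84 (adjusted p = 0.0074) in the second. The other Gs-coupled receptor, Htr6, went with the MSN side at 14.3 ± 3.49 against 6.63 ± 1.73 CPM (-1.04 ± 0.16, adjusted p = 5.4e-05).

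**Figure D4:**
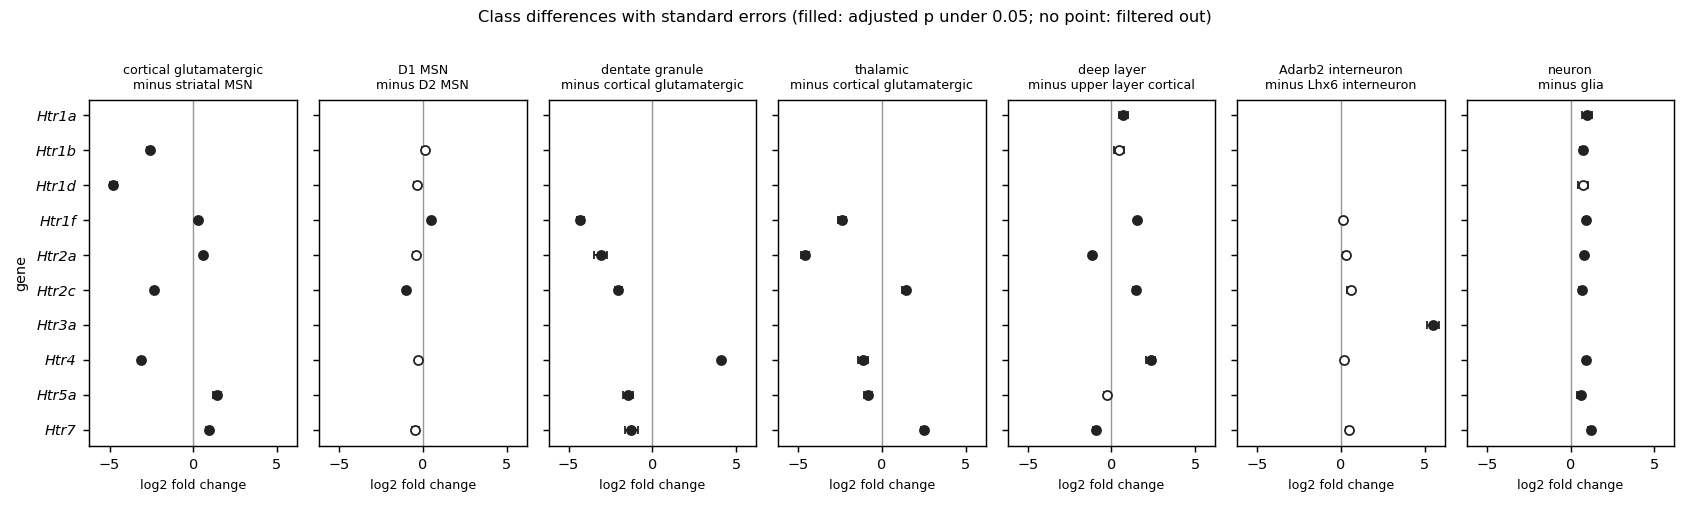
Log2 fold change (points) and standard error (bars) of the receptor genes in 7 class comparisons over 7 libraries; filled points have an adjusted p under 0.05 and genes without a point did not pass the count filter. Htr1b, Htr1d, Htr2c and Htr4 lie left of 0 in cortical against MSN nuclei, and Htr4 (4.11) and Htr3a (5.51) have the largest positive changes.

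Finer clusters separated the MSN-like nuclei into 503 D2-type nuclei (with Drd2 and Adora2a) and D1-type nuclei (with Drd1) in a pair of clusters of 459 and 370. Of the 7 receptor genes tested 2 were called, where 9.60% of all genes were called (5.30% higher and 4.30% lower in D1). Htr2c had 171 ± 26.6 CPM in D1 and 333 ± 38.5 CPM in D2 nuclei, with a log2 fold change of -1.03 ± 0.08 (adjusted p = 1.1e-08), lower in D1 nuclei in 7 of 7 libraries without overlap. Htr1f was the higher in D1 nuclei, at 189 ± 32.7 against 140 ± 47.7 CPM (0.48 ± 0.13, adjusted p = 0.019), in 6 of 7 libraries. Without frozen preindex replicate 2 this was 0.33 (adjusted p = 0.14), and without fresh no preindex replicate 2 it was 0.40 (adjusted p = 0.062). The other 5 genes were not called, Htr4 among them at 143 ± 36.5 and 164 ± 36.0 CPM.

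The D1 mean of Htr4 covered a pair of very different clusters. In the 459 D1 nuclei led by Drd3 and Tac1, Htr4 ranged from 138 to 300 CPM, with a median of 243. In the 370 D1 nuclei led by Gm13974, Drd1 and Rgs9 it ranged from 7.24 to 65.1 CPM, with a median of 33.4. These ranges did not overlap in any library. Htr1b went the other way, at 21.4 ± 6.06 CPM in the first and 37.8 ± 7.16 CPM in the second, also without overlap (13.2 to 30.7 against 31.4 to 48.8 CPM). The clusters were set side by side after their values were seen, and no test was made between them.

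Dentate granule-like nuclei differed from cortical glutamatergic-like nuclei in all 6 receptor genes tested, where 48.3% of all genes were called (24.3% higher and 23.9% lower). Htr4 was 329 ± 48.9 against 19.3 ± 5.11 CPM (log2 fold change 4.11 ± 0.12, adjusted p = 1.1e-13), higher in 7 of 7 libraries. The other 5 were lower. Htr1f (-4.29 ± 0.23, adjusted p = 7.3e-11) and Htr2a (-3.09 ± 0.37, adjusted p = 2.2e-06) did not overlap between the classes, whereas Htr2c (-2.03), Htr5a (-1.45) and Htr7 (-1.25) did. Htr7 was -1.01 without frozen preindex replicate 1 (adjusted p = 0.053) and -1.09 without fresh no preindex replicate 1 (adjusted p = 0.060).

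Thalamic-like nuclei also differed from cortical glutamatergic-like nuclei in 6 of 6 receptor genes, where 41.5% of all genes were called (20.4% higher and 21.1% lower). Htr7 was 134 ± 48.8 against 24.5 ± 3.01 CPM (2.49 ± 0.15, adjusted p = 2.7e-09), higher in 7 of 7 libraries, and Htr2c 122 ± 43.6 against 47.1 ± 12.5 CPM (1.41 ± 0.18, adjusted p = 9.7e-06), higher in 6 of 7. Htr2a was nearly missing from thalamic-like nuclei, at 0 to 5.58 CPM over libraries against 66.6 to 101 CPM (-4.58 ± 0.23, adjusted p = 2.3e-10). Htr1f (-2.37), Htr4 (-1.14) and Htr5a (-0.85) were lower as well.

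Within cortex, deep layer-like nuclei (layers 5 and 6) were set against upper layer-like nuclei (upper layer and Rorb layer 4), and 6 of 8 receptor genes were called, where 31.7% of all genes were (15.6% higher and 16.1% lower). Htr1f stood at 361 ± 65.2 CPM in deep and 121 ± 16.5 CPM in upper nuclei (1.52 ± 0.07, adjusted p = 7.3e-11). Htr2a went the other way, at 49.3 ± 13 and 99.6 ± 16.4 CPM (-1.14 ± 0.12, adjusted p = 1.6e-06). Both held in 7 of 7 libraries without overlap. Htr4 (2.34), Htr2c (1.44) and Htr1a (0.71) were higher in deep nuclei, Htr7 (-0.92) was lower, and Htr1b (0.43) and Htr5a (-0.29) were not called. For Htr2c the deep class mixes unlike clusters. Layer 6-like nuclei, 688 of its 1123 nuclei, had a lower mean than upper layer cortical-like nuclei, as given above. Layer 5-like nuclei with Tshz2 had the highest mean of all, so the Htr2c difference does not describe layer 6. The Htr1a call ended when any 1 of 5 libraries was left out (0.60 to 0.68, adjusted p = 0.059 to 0.11).

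Between the interneuron classes 1 of 6 receptor genes was called, where 27.6% of all genes were called (14.1% higher and 13.5% lower). Htr3a had 45.2 ± 23.2 CPM in Adarb2 and 0.749 ± 0.938 CPM in Lhx6 interneuron-like nuclei (5.51 ± 0.36, adjusted p = 5.9e-09), higher in 7 of 7 libraries. Lhx6 nuclei held 0 to 4 UFIs of Htr3a a library, so the gene passed the count filter through Adarb2 nuclei only. The other 5, from 0.10 (Htr1f) to 0.57 (Htr2c), did not pass. Without fresh no preindex replicate 2, Htr2c was 0.88 (adjusted p = 0.00030).

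Storage and primer were compared over libraries, first on all nuclei. In such sums fewer nuclei of a type and less RNA per nucleus cannot be told apart. Between frozen (n = 4) and fresh (n = 3) libraries none of the 10 genes was called by edgeR, where 0.207% of all genes were called (0.114% higher and 0.0933% lower in frozen). DESeq2 also called none, and 1 gene had an unadjusted p under 0.05. Log2 changes ran from -0.44 ± 0.18 for Htr1a (3.33 ± 0.704 frozen and 5.00 ± 1.55 CPM fresh) to 0.18 ± 0.17 for Htr1b. Without the fresh preindexed library Htr1b was 0.52 (adjusted p = 0.048), and 4 receptor genes were called. Calls over all genes rose as well in that fit, as given above. In neuron-like nuclei alone none was called either, where 0.439% of all genes were (0.253% higher and 0.187% lower), with 1 gene under an unadjusted p of 0.05. There too 4 were called without the fresh preindexed library. The shares of all genes in this paragraph belong to the full fits and not to these counts of 4. Without a share from the same fit beside them, these counts are not read as a result about the receptor genes.

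More genes were called for the primer than for storage. On all nuclei 2 of the 10 receptor genes were called, where 15.8% of all genes were called (7.88% higher and 7.88% lower with preindex). Htr2a stood at 41.0, 39.1, 46.5 and 54.4 CPM without preindex and at 54.4, 57.0 and 54.5 CPM with it (0.41 ± 0.08, adjusted p = 0.016). Htr5a stood at 8.72, 9.03, 9.41 and 9.66 CPM without and at 6.01, 6.67 and 7.28 CPM with preindex (-0.36 ± 0.09, adjusted p = 0.042), with a gap between the groups. The Htr2a groups do not overlap either, but the highest library without preindex lies at the edge of the preindexed ones. Leaving out any 1 of the 4 frozen libraries ended the Htr2a call (0.35 to 0.41, adjusted p = 0.051 to 0.063), and leaving out any library but the fresh preindexed one ended that of Htr5a (adjusted p = 0.079 to 0.13). Kidney-like nuclei, in which Htr5a had no UFI, occurred only in the frozen preindexed libraries. Without the kidney and liver clusters Htr5a was -0.23 (adjusted p = 0.097). Neuron-like nuclei of the frozen preindexed libraries had 6.65 and 7.18 CPM of Htr5a, and the fresh preindexed library held 0 kidney-like nuclei. The cause of the Htr5a difference was not tested.

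In neuron-like nuclei 3 receptor genes were higher with preindex, where 11.2% of all genes were called higher and 9.86% lower (21.1% in all). Htr2a had 59.8 ± 3.66 (n = 3) against 46.7 ± 7.67 CPM (n = 4), with 0.53 ± 0.10 and an adjusted p of 0.0050. Htr1f (0.35 ± 0.10, adjusted p = 0.036) and Htr4 (0.25 ± 0.06, adjusted p = 0.019) overlapped between the groups, as Htr2a did. Htr1f fell short without either frozen preindexed library or fresh no preindex replicate 2 (adjusted p = 0.057 to 0.11), and Htr4 without frozen no preindex replicate 2 or frozen preindex replicate 2 (adjusted p = 0.056 to 0.077). The makeup of the neuron-like nuclei moved with the primer. Of them, 33.1 to 34.9% were cortical glutamatergic-like in the preindexed libraries and 20.9 to 32.5% in the others. MSN-like nuclei were 13.7 to 17.3% and 8.61 to 14.1%. Cerebellar granule-like and Purkinje-like nuclei were 0 to 0.102% with preindex and 4.25 to 13.9% without. The Gabrq and Baiap3 cluster made up 15.1 to 15.4% with preindex and 18.9 to 20.6% without. How far this makeup sets the primer and interaction values was not tested. Within cortical glutamatergic-like nuclei none of 8 receptor genes was called for the primer by edgeR, where 9.19% of all genes were (5.42% higher and 3.77% lower), and 3 had an unadjusted p under 0.05. There Htr4 had -0.46 ± 0.15 (adjusted p = 0.079) and Htr2a 0.29 ± 0.12 (adjusted p = 0.14). Within MSN-like nuclei 1 of 8 was called, where 5.24% of all genes were (2.97% higher and 2.27% lower): Htr4, at 172 ± 5.21 with and 138 ± 28.6 CPM without preindex (0.42 ± 0.12, adjusted p = 0.041). For storage none of 8 was called in either class, where 0.207% (cortical, 0.0896% higher and 0.117% lower) and 0.336% (MSN, 0.168% in each direction) of all genes were. By an unadjusted p under 0.05 the counts were 0 (cortical) and 2 (MSN).

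The change with the primer differed between frozen and fresh tissue for 3 receptor genes in all nuclei, where 16.4% of all genes were called for this difference (9.93% higher and 6.49% lower), and for 3 in neuron-like nuclei, where 6.79% were (3.35% higher and 3.44% lower). The values stand in the closing section, because every one of them rests on the single fresh preindexed library.

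**Figure D5:**
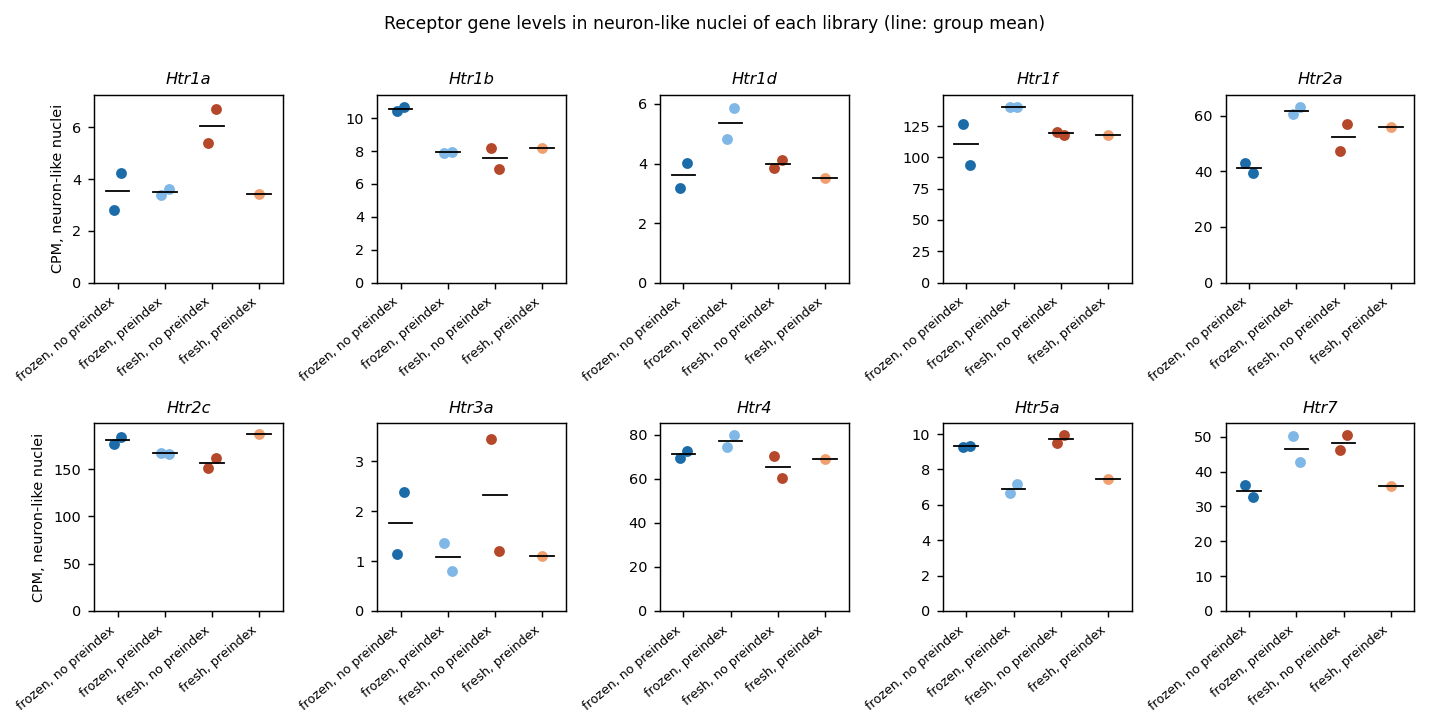
CPM of each receptor gene in the neuron-like nuclei of each library (points) in the 4 storage and primer groups, with group means (lines); the fresh preindexed group is 1 library. Htr5a is below 7.5 CPM in the 3 preindexed libraries and above 9.2 CPM in the 4 others, though it was not called for the primer in these nuclei. The 3 preindexed Htr2a values, 55.8 to 63.0 CPM, overlap the highest of the others (57.1 CPM).

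The other receptor genes were sparse. Over all nuclei Htr6 had 1083 UFIs, Htr5b 162, Htr3b 37 and Htr2b 18. Htr5b, which is a pseudogene in people, had its highest mean among the 21 clusters found in at least 4 libraries in hippocampal pyramidal-like nuclei (4.13 CPM), and 35.9 CPM (4 UFIs) in the 16 nuclei of the Chrna3 and Chrnb4 cluster in the fresh preindexed library. Htr3b, which joins Htr3a in some channels, had 1 UFI in all Adarb2 interneuron-like nuclei, in frozen no preindex replicate 1, and none there in the other 6 libraries, too few to rank the clusters. Htr2b lies within Psmd1 on the opposite strand. None of the 3 of these genes that passed the filter was called for storage or primer, in all nuclei or in neuron-like nuclei.

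Genes that make and move serotonin had few UFIs. Tph2, the enzyme that sets serotonin synthesis in neurons, had 355 UFIs over all nuclei, Slc6a4, the serotonin transporter, 161, Tph1 35, Gch1 216 and Fev, a transcription factor of raphe neurons, 6. Some of these came from outside the neuron-like nuclei: kidney-like nuclei had 24 and 23 UFIs of Slc6a4 (11.4 and 9.77 CPM) and 8 and 17 of Gch1 in the frozen preindexed libraries, and the liver cluster had 45 of Gch1 in the fresh preindexed library. The breakdown enzymes had their highest levels outside the neuron-like clusters: Maoa in endothelial-like (88.7 CPM, a cluster of 72 nuclei) and Maob in astrocyte-like nuclei (31.7 CPM). Maoa was not called between neuron-like and glia-like nuclei. Ddc, which completes the synthesis, was 5.82 ± 2.14 CPM in neuron-like and 16.9 ± 11.3 CPM in glia-like nuclei (-1.45 ± 0.25, adjusted p = 0.00036), and Maob 4.88 ± 1.45 and 14.7 ± 8.47 CPM (-1.56 ± 0.29, adjusted p = 0.00058). With preindex, Slc6a4 (-1.77 ± 0.53, adjusted p = 0.039), Tph2 (-1.41 ± 0.44, adjusted p = 0.042) and Slc18a2, the vesicle transporter (-1.24 ± 0.34, adjusted p = 0.028), were lower in neuron-like nuclei. All 3 calls ended without frozen no preindex replicate 2, where the changes were -0.81, -0.68 and -0.59. Maoa was higher in Adarb2 than in Lhx6 interneuron-like nuclei (1.12 ± 0.26, adjusted p = 0.0037) and lower in dentate granule-like than in cortical nuclei (-0.52 ± 0.20, adjusted p = 0.046, lost without any 1 of 5 libraries and under DESeq2, adjusted p = 0.051 to 0.15), and Maob was higher in thalamic-like than in cortical nuclei (2.61 ± 0.34, adjusted p = 1.2e-05).

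Of 33 listed signalling partners of the receptors (G proteins, adenylyl cyclases, phospholipases, potassium channels and regulators), 28 were tested between cortical and MSN-like nuclei, with 13 higher and 10 lower in cortex, where 26.9% of all genes were higher and 26.5% lower. Adcy5, the main striatal adenylyl cyclase (-4.52 ± 0.07, adjusted p = 1.2e-15), and Gnal, the Gs-type protein of the striatum (-3.20 ± 0.08, adjusted p = 9.5e-14), were lower in cortex, beside the lower Htr4. Adcy5 is also an MSN marker, so its change is built into the class. The cyclases Adcy8 (3.28 ± 0.20) and Adcy2 (2.99 ± 0.11) were higher there. In D1 against D2 nuclei 6 of 27 tested partners were higher and 4 lower (5.30% and 4.30% of all genes), with Adcy2 (2.26 ± 0.23) and the potassium channel subunit Kcnj6 (2.04 ± 0.20) among the higher.

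In thalamic-like against cortical nuclei 6 of 27 partners were higher and 11 lower (20.4% and 21.1% of all genes). Plcb4, a phospholipase that Gq drives, was higher (2.05 ± 0.12, adjusted p = 2.1e-09) and Plcb1 lower (-2.73 ± 0.21, adjusted p = 2.9e-08). In the same comparison Htr2c was higher than in cortical nuclei, though not above its level over all neuron-like nuclei, and Htr2a was nearly missing. In dentate granule-like nuclei 8 of 27 were higher, with Adcy1 (1.29 ± 0.08) and Kcnj6 (1.17 ± 0.08), and 10 lower, with Plcb4 (-2.83 ± 0.30) and Rgs4 (-2.13 ± 0.21), where 24.3% of all genes were higher and 23.9% lower. In deep against upper layers 7 of 27 were higher and 5 lower (15.6% and 16.1% of all genes). Between the interneuron classes 3 of 25 were higher and 7 lower (14.1% and 13.5% of all genes), and in neuron-like against glia-like nuclei 14 of 30 higher and 5 lower (20.4% and 21.6% of all genes). None of 33 partners was called for storage by edgeR, in all nuclei (10 with an unadjusted p under 0.05, where 0.207% of all genes were called) or in neuron-like nuclei (6, where 0.439% were). For the primer 5 of 33 were higher and 8 lower in all nuclei (7.88% of all genes each way), and 8 higher and 6 lower in neuron-like nuclei (11.2% and 9.86%).

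The genes whose log2(CPM + 1) over the 25 clusters was most like that of a receptor gene were, by Pearson's r, Sgcd for Htr2c (0.86), Hs3st2 for Htr1f (0.83), Nkain3 for Htr4 (0.81), Kcnh1 for Htr2a (0.80), Timp2 for Htr7 (0.80), Stim1 for Htr1b (0.84), Dnah9 for Htr1a (0.80), Ric8b for Htr1d (0.63), Frem1 for Htr3a (0.70) and Apbb1 for Htr5a (0.88). The second in each case were Gm26691 (0.85), Pcdh10 (0.80), Ago1 (0.78), Rasgef1c (0.79), Homer2 (0.78), Cep126 (0.82), Gm45898 (0.74), Strn (0.61), 2610507B11Rik (0.65) and Necab3 (0.87). The clusters share libraries, depth and the cells from which they were formed, so these values are descriptions. For the sparse genes Htr1a, Htr1b, Htr1d, Htr3a and Htr5a they rest on few UFIs a cluster.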

How the data were processed

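Nuclei of mouse brain were profiled with snHH-seq, a droplet method that primes total RNA with random primers. Per the methods and the submitters' processing notes, the authors trimmed reads with Cutadapt, found cell barcodes with UMI-tools and a manual cutoff, aligned with STAR in 2 passes, kept unique reads, assigned them to whole genes with featureCounts, and used UMI-tools to collapse UFIs. The tables as deposited hold these raw UFI counts per gene and nucleus. The notes list the builds GRCh38, GRCm38 and mm10. No tool version is given for the brain tissue libraries in the sources used here, whereas the paper names a STAR version for the species mixture. The human and mouse cell mixture libraries were not used, and 0 columns of values were left unassigned.

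All 11198 barcodes were kept, and doublets were neither called nor removed. Nuclei were scaled to 10000 UFIs and clustered with scanpy 1.11.5 and leidenalg 0.10.2 (2000 variable genes without 23 receptor and serotonin genes, 40 components, 10 neighbours, Leiden resolution 0.4). A cluster was named where at least 3 markers, and 50% of the list, exceeded by at least 2-fold their average elsewhere, provided that 1 or more markers stood within the cluster's top 10 genes by fold. No name came from the liver markers. The naming rule was written after a first clustering. UFIs were summed per class and library (at least 10 nuclei) and tested with edgeR 4.0.16 (filterByExpr, TMM, quasi-likelihood test, R 4.3.3), with storage and primer as terms, or with the library as a block between classes. A gene was called at a Benjamini-Hochberg adjusted p under 0.05. A standard error is the log2 fold change divided by the root of the F statistic. DESeq2 1.42.0 was an alternative, and both fits were tested on simulated data. Classes set against cortical glutamatergic-like nuclei share its libraries, as do the comparisons with MSN-like nuclei.

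The 10 receptor genes were all named, with 4 other receptor genes, 9 serotonin genes and, of 33 partners, the up to 4 called with the largest change in a comparison. The receptor genes, lists and comparisons were chosen with earlier results of these data known. Interval level was 95% and the limit for a count of 0 was 3 counts. The number of nuclei and UFIs limits the precision of each level.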

Additional observations from a re-analysis of the deposited data

Results flagged for a closer look

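In 50 groups of libraries, 3 held a library far from the others, where chance marks about 1 group in 20. Among the 4 libraries without preindex, Htr1d over all nuclei was 2.91 CPM in frozen no preindex replicate 1 and 3.80 to 3.84 CPM in the other 3. Among the 4 frozen libraries, Htr1f was 90.6 CPM in frozen no preindex replicate 2 and 124 to 127 CPM in the other 3. Among the 4 libraries without preindex, Htr4 was 57.8 CPM in fresh no preindex replicate 2 and 67.3 to 68.6 CPM in the other 3.

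The change with preindex in frozen minus that in fresh libraries passed edgeR's quasi-likelihood test with Benjamini-Hochberg adjustment for 3 receptor genes over all nuclei. It was -0.76 ± 0.20 for Htr1b (adjusted p = 0.017), -0.58 ± 0.07 for Htr2c (adjusted p = 7.0e-05) and 0.59 ± 0.12 for Htr7 (adjusted p = 0.0038), on the log2 scale. In neuron-like nuclei it was 0.48 ± 0.12 for Htr2a (adjusted p = 0.029), -0.41 ± 0.07 for Htr2c (adjusted p = 0.0030) and 0.85 ± 0.13 for Htr7 (adjusted p = 0.0015). Htr2c in neuron-like nuclei was 177 and 184 CPM (frozen, no preindex), 167 and 166 CPM (frozen, preindex), 151 and 161 CPM (fresh, no preindex) and 187 CPM in the fresh preindexed library, the highest of all. Htr7 was 36.2 and 32.6, 50.3 and 42.7, 46.1 and 50.4, and 35.9 CPM in the same order. The fresh preindexed group is 1 library, so that library and its group cannot be told apart. With the kidney and liver clusters left out, the Htr1b difference over all nuclei was -0.60 (adjusted p = 0.080). Under DESeq2, Htr1b had an adjusted p of 0.10 and, in neuron-like nuclei, Htr2a one of 0.11. The Htr2a call also ended without any 1 of 4 libraries (adjusted p = 0.081 to 0.12) and that of Htr1b without frozen no preindex replicate 2 (adjusted p = 0.060) or fresh no preindex replicate 2 (adjusted p = 0.065).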

How the results depend on the processing

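Of 1292 alternative values of named genes, 1170 kept direction and call, 106 lost the call, 10 gained it and 6 reversed. Of 151 alternative counts of receptor genes 127 stayed within 1.5 times and 24 moved. The cause was not tested for any of these. With finer clusters (Leiden resolution 1.2), Htr1f between cortical and MSN-like nuclei was -0.052 and Plcb4 between deep and upper layers -0.33. With 20 components, Htr2a and Htr7 between cortical and MSN-like nuclei were -0.055 and -0.84, and the leading cluster was kept by 5 of 10 receptor genes. Without the kidney and liver clusters, the Gna14 interaction was -0.40. Receptor genes called for the primer over all nuclei numbered 1 under DESeq2, upper-quartile scaling and the replicate block each. Without the filter on low counts, 6 were called for the primer in neuron-like nuclei and 5 between interneuron classes. Without the library block, 1 was called between D1 and D2 nuclei. Shares of all genes called are not given beside these counts or those of the next paragraph. None of these counts is read as a result about the receptor genes.

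Leaving out 1 library at a time, the receptor genes called ranged from 0 to 4 for storage over all nuclei and in neuron-like nuclei, 0 to 6 (without the fresh preindexed library) and 1 to 5 for the primer, 1 to 3 between interneuron classes and 1 to 3 between D1 and D2 nuclei, and Htr1f between interneuron classes ranged from -0.0046 to 0.17.

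Over all genes, calls for storage numbered 40 against 316 with DESeq2, 1937 without the filter, 5 with the replicate block and 4 to 840 leaving out 1 library. For storage in neuron-like nuclei 80 stood against 174, 766, 31 and 25 to 964. For the primer over all nuclei 3041 stood against 1731 with the block, 4787 without the filter and 1009 to 5668, and in neuron-like nuclei 3839 against 2422 at the fewest. Interaction calls fell from 3168 to 1872 with DESeq2 and 1481 without kidney and liver clusters, and from 1236 to 528 (DESeq2) and 578 (1 library out) in neuron-like nuclei.

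Same-numbered libraries did not deviate together (correlations -0.012, 0.041 and -0.043), so the replicate numbers were not taken to pair samples. With 20 components the interneuron and layer classes could not be formed, D1 and D2 nuclei separated only at resolution 1.2, and the interaction cannot be had without the fresh preindexed library. Depth limits Htr1a, Htr1b, Htr1d, Htr3a and Htr5a most.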

Other observations

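Few nuclei carried several markers of raphe neurons, the source of serotonin. Of the 11198 nuclei, 6 had UFIs of at least 3 of 5 serotonergic markers (Tph2, Slc6a4, Fev, Slc18a2 and Ddc). Tph2 was found in 4 of them and Slc6a4 in 5. They held 122 of the 355 Tph2 UFIs and 74 of the 161 Slc6a4 UFIs, so other nuclei held the rest, and a nucleus of this kind with fewer sampled markers would not be counted. Among the receptor genes Htr1f was found in 5 of the 6 nuclei. Htr1b and Htr1d, which act as autoreceptors on serotonin axons, were found in 2 each, as were Htr2c, Htr4 and Htr5a. Htr1a, Htr2a and Htr7 were found in 1 each and Htr3a in 0. These are too few nuclei to compare with any other class.

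Among the 33 nuclei of the cluster led by Chrna3 and Chrnb4, Htr4 was at 281 CPM over all libraries together, close to its level in dentate granule-like nuclei (329 CPM), with no library spread since too few libraries held 10 of these nuclei. Htr1b had a UFI in 85.3% of the 34 Purkinje-like nuclei and in 27.1% of MSN-like nuclei, whose median depths were 26728.5 and 11494 UFIs. Per kb of span, the level of Htr1b in MSN-like nuclei, 4.83 CPM per kb, was above that of Htr2c (0.967), Htr1f (0.927), Htr1d (0.890) and Htr4 (0.883) in the same nuclei. Over all neuron-like nuclei the order per kb of exon was another, with Htr1f highest.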
